A study of Mus musculus with 8 samples.

Results

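Serpins are protease inhibitors that present a reactive loop as bait and trap the protease that cleaves it, and a few members have lost this activity and serve as hormone carriers or chaperones instead. In the circulation they restrain clotting, fibrinolysis, complement and leukocyte elastases, while members of clade B act inside cells. In the kidney the glomerular filtration barrier is exposed to the serpins of plasma. The family was taken here as every row of the array table whose gene symbol starts with *Serpin*, which gave 66 probes for 53 of the 18120 gene symbols on the array, or 66 of 25697 probes.

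The samples were glomeruli isolated with magnetic beads from kidneys of FVB/N males aged 3 weeks, 4 homozygous for a germline deletion of *Cd151* (*Cd151*-/-) and 4 wild-type (*Cd151*+/+). CD151 is a tetraspanin of the podocyte that partners laminin-binding integrins, and on the FVB/N background its loss gives proteinuria with damage to the glomerular basement membrane, so the comparison asks which transcripts differ in early disease. Each mouse was read on 1 Illumina MouseRef-8 array. Levels are given as log2 signal after background correction and quantile normalisation, differences as *Cd151*-/- minus *Cd151*+/+ on that log2 scale, and a probe was called detected on an array at a detection p-value of 0.05 or lower, the share of negative-control probes at least as bright.

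The arrays bore out their labels. Each of the 3 *Cd151* probes was detected in every *Cd151*+/+ mouse and in no *Cd151*-/- mouse, and the brightest stood at 14.37 ± 0.24 (SD, n = 4) against 4.57 ± 0.08 (n = 4), at least 523-fold lower when the lowest signal called detected stands in for the knockout (adjusted p = 6.51e-10, limma). Of 6 podocyte markers on the array 5 were detected in every mouse, with *Cdkn1c*, which encodes a cell cycle inhibitor of mature podocytes, giving the brightest probe. Tubule was also present. The loop of Henle transcript *Umod* stood at 14.31 ± 0.51 and 13.77 ± 0.42, and the 8 proximal tubule markers on the array were all detected in at least 1 mouse. Array background split the mice evenly, a division seen in the signals and not named in the labels. It was high, 123 to 135 signal units, for *Cd151*+/+ mice 3 and 4 together with *Cd151*-/- mice 1 and 2. For the other 4, *Cd151*+/+ mice 1 and 2 together with *Cd151*-/- mice 3 and 4, it was low, 59.0 to 69.5. From 11291 to 12359 probes were detected per array.

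A smaller share of the family than of the whole array was detected. A probe was detected on at least 1 array for 24 of the 53 *Serpin* genes, 27 of 66 probes or 40.9%, against 58.2% of all probes. In every one of the 8 mice 12 genes were detected, *Serpina1b*, *Serpina1d*, *Serpina3g*, *Serpina3h*, *Serpina3n*, *Serpinb1a*, *Serpinb6a*, *Serpine2*, *Serpinf1*, *Serpinf2*, *Serping1* and *Serpinh1*. A further 6 were detected on only 1 array. Of clade A, the secreted serpins of the antitrypsin type, 11 of 19 genes were detected, and of clade B, the intracellular serpins, 7 of 24 were, with *Serpinb1a* and *Serpinb6a* the members of clade B found in every mouse.

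The 29 genes that no array detected include several of the best known. Antithrombin (*Serpinc1*), heparin cofactor II (*Serpind1*), thyroxine-binding globulin (*Serpina7*), plasminogen activator inhibitor-2 (*Serpinb2*), maspin (*Serpinb5*) and the granzyme B inhibitor *Serpinb9* were undetected in all 8 mice. The 39 undetected *Serpin* probes, which include other probes of some detected genes, lay between 4.34 and 5.40 on the log2 scale in every mouse. A difference between genotypes in the transcripts of the 29 genes was therefore not detectable with these arrays.

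**Figure D1:**
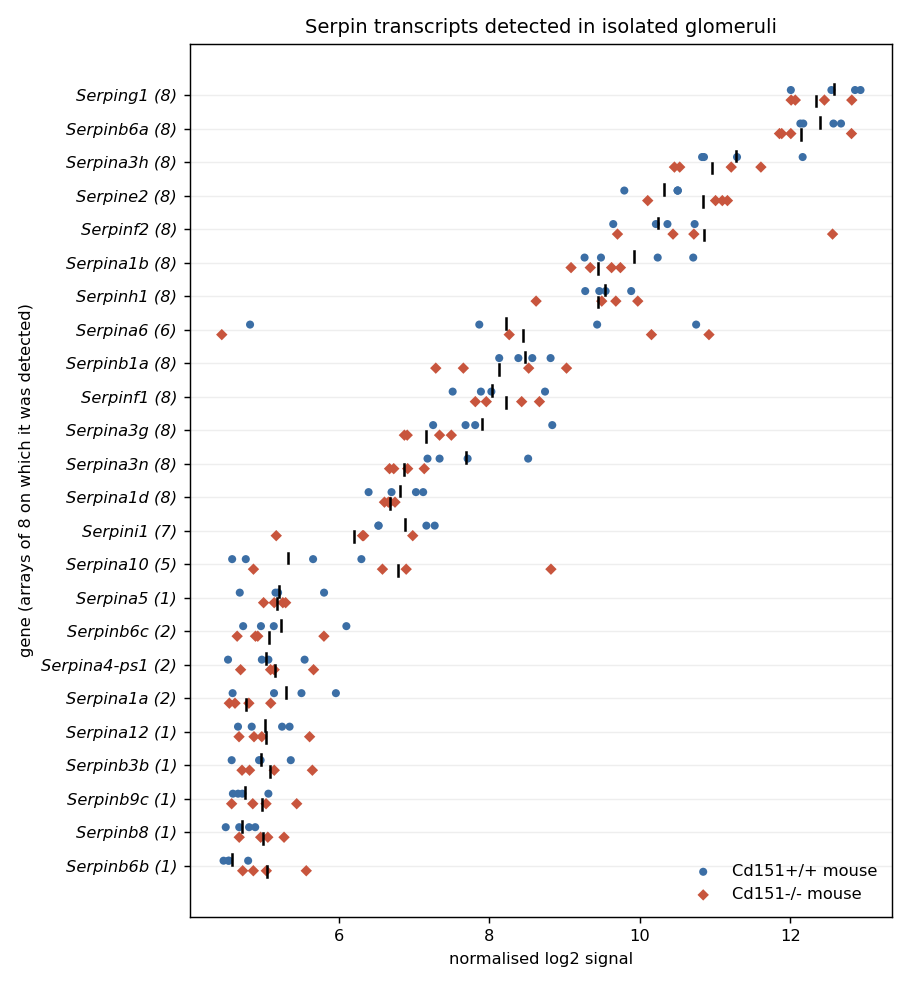
Normalised log2 signal (x axis) of the 24 detected *Serpin* genes (y axis, ordered by their mean, with the number of arrays of 8 that detected them), 1 point per mouse, circles for *Cd151*+/+ and diamonds for *Cd151*-/-, and a black tick for each group's mean of 4 mice. The genotypes overlap for every gene except *Serpina3n*, and *Serpina6* spreads from 4.45 to 10.92 within the *Cd151*-/- group. Signals of different probes are not comparable as transcript levels.

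No *Serpin* gene passed Benjamini-Hochberg adjustment over the 14967 tested probes in limma, a test with moderated variances. The lowest adjusted p among the 24 was 0.918, and 5 of the 14967 probes (0.0334%) passed. At an unadjusted p of 0.05, 2 of the 24 genes were lower in *Cd151*-/- glomeruli and 0 were higher, or 8.33%, where 4.3% of all tested probes reached that level, 2.61% of them lower and 1.69% higher. With 24 genes the difference between these shares comes to about 1 gene. With the background set as a block in the fit 5 genes reached it, *Serpinb6b*, which 1 *Cd151*-/- and no *Cd151*+/+ array detected, higher and *Serpina1b*, *Serpina3g*, *Serpina3n* and *Serpini1* lower, where 11.3% of all tested probes did (5.21% higher and 6.08% lower), and 0 passed adjustment (lowest adjusted p 0.356, limma). In direction, 13 genes were lower and 11 higher, where 50.9% of all tested probes were lower, with a median log2 difference of −0.07 against −0.01 over all tested probes. Among the 12 genes detected in every mouse 9 were lower and 3 higher, with a median of −0.25, where 53.5% of the 9495 probes detected in every mouse were lower, with a median of −0.03. The median absolute difference was 0.26 for the 24 genes and 0.21 for all tested probes.

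**Figure D2:**
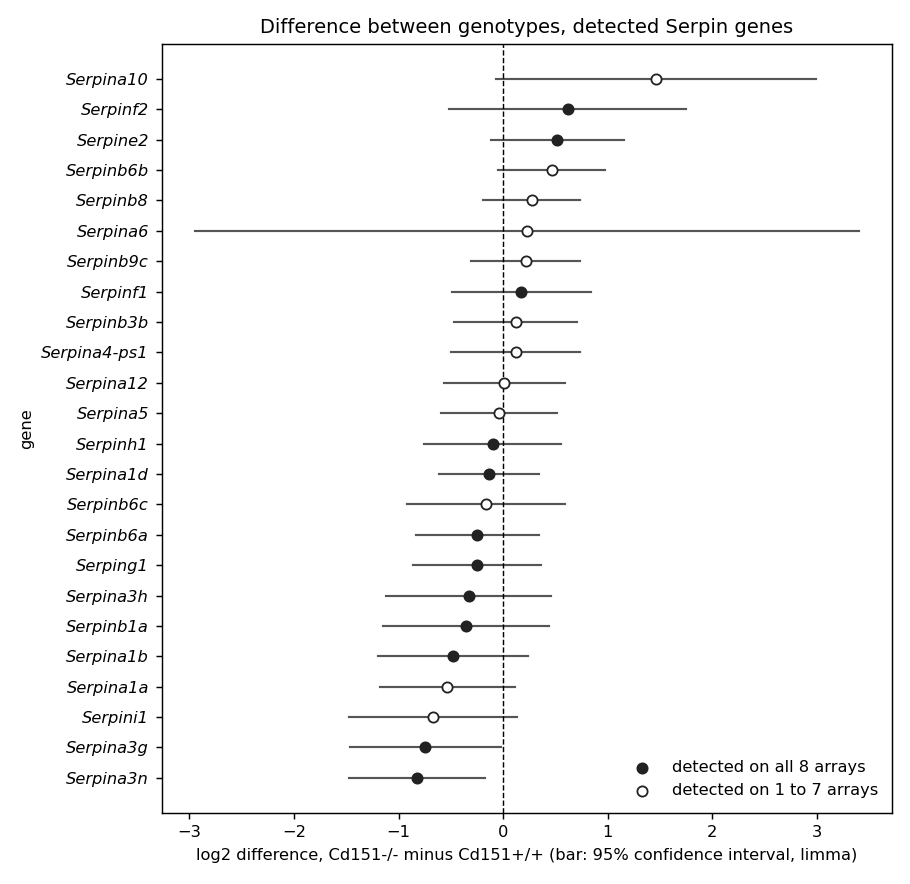
Log2 difference (x axis, *Cd151*-/- minus *Cd151*+/+, n = 4 and 4) of each detected *Serpin* gene (y axis), with its 95% confidence interval from limma. Filled points were detected on all 8 arrays and open points on fewer, so that some of the latter compare signals at background. The intervals of *Serpina3n* (−1.47 to −0.17) and *Serpina3g* (−1.46 to −0.02) lie below 0, unadjusted for the number of genes, and that of *Serpina6* is the widest.

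Both genes below the unadjusted threshold belong to the *Serpina3* cluster, a row of close paralogs that arose in rodents from a single ancestor of human antichymotrypsin. *Serpina3n* encodes a secreted acute-phase inhibitor of leukocyte proteases such as granzyme B and cathepsin G, and *Serpina3g*, also called Spi2A, an intracellular inhibitor of cysteine cathepsins. The sequences around the annotated starts of both genes are shown because the pair was lower in the same comparison and sits in the same cluster. They are taken from RefSeq on GRCm38.p6, from 250 bases before to 50 bases after the annotated start, 5′ to 3′ on the plus strand. *Serpina3n* is chr12:104406458-104406757 and *Serpina3g* is chr12:104235897-104236196. Capitals mark every stretch of at least 10 bases that occurs unbroken in both.
Serpina3n: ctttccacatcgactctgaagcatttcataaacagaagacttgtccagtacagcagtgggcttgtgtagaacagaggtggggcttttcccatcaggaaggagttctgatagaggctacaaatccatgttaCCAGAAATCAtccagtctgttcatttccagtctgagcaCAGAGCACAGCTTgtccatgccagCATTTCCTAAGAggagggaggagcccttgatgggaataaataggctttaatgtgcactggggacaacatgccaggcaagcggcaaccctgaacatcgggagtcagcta
Serpina3g: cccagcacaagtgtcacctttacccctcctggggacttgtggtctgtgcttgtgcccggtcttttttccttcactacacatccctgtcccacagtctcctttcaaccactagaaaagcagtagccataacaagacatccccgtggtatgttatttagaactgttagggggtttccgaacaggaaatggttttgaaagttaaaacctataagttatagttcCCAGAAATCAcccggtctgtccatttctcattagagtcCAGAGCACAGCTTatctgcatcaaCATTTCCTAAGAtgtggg

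The windows share 3 such stretches with 35 bases in all, the longest of 13 bases. They stand in the same order at the same spacing, beginning at positions 131, 169 and 193 of the *Serpina3n* window and 221, 259 and 283 of the *Serpina3g* window, counted from 1 at the 5′ end. Those at 259 and 283 lie after the annotated start of *Serpina3g*, whereas in *Serpina3n* all 3 lie before it. Windows of the other genes of the cluster were not compared. The STAT motif TTCNNNGAA, searched on both strands, occurs 0 times in the *Serpina3n* and 1 time in the *Serpina3g* window, and in 8.3% of the 32851 promoter windows of the table. The TATA motif TATAAA occurs in neither window and in 13.6% of all windows. These matches describe the letters only.

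*Serpina3n* had log2 signals of 8.52, 7.71, 7.34 and 7.18 in *Cd151*+/+ mice 1 to 4 and 6.68, 6.92, 7.14 and 6.73 in *Cd151*-/- mice 1 to 4. Every *Cd151*-/- mouse was below every *Cd151*+/+ mouse, by a narrow margin between the closest mice of each genotype. It was the 1 *Serpin* gene of 24 (4.17%) whose groups did not overlap, against 2.31% of all tested probes (1.46% lower and 0.855% higher). The means were 7.69 ± 0.60 and 6.87 ± 0.21 (SD, n = 4), a log2 difference of −0.82 (standard error 0.29), which is 1.77-fold lower and did not pass adjustment (unadjusted p = 0.0178, adjusted p = 0.918, limma). It was −0.49 without the normexp background correction and −1.10 with array weights. An exact permutation test, two-sided, gave p = 0.0286, the smallest that 70 ways of dividing the mice allow. The difference was −1.18 within the arrays of lower background and −0.46 within those of higher background. Without *Cd151*+/+ mouse 1, the highest mouse, it was −0.55 with an unadjusted p of 0.0545 from limma.

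*Serpina3g* had log2 signals of 7.26, 7.69, 8.84 and 7.81 in *Cd151*+/+ and 7.34, 6.87, 7.50 and 6.91 in *Cd151*-/- mice. The groups overlapped, and *Cd151*+/+ mouse 3 stood above all others. The difference was −0.74 (standard error 0.33, unadjusted p = 0.0447, adjusted p = 0.918, limma), −0.27 within the lower and −1.22 within the higher background set. Without *Cd151*+/+ mouse 3 it was −0.43 with an unadjusted p of 0.130, and the unadjusted p from limma also lay above 0.05 without *Cd151*+/+ mouse 2 (0.0524, difference −0.81) or 4 (0.0661, −0.77) and without *Cd151*-/- mouse 1 (0.0529, −0.80), 2 (0.0998, −0.65) or 4 (0.100, −0.66). The unadjusted p from limma lay below it without *Cd151*+/+ mouse 1 (0.0155, difference −0.96) or *Cd151*-/- mouse 3 (0.0371, −0.86).

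The third detected gene of the cluster, *Serpina3h*, is a transcribed pseudogene in the RefSeq table. Its log2 signals were 10.85, 11.29, 12.17 and 10.83 in *Cd151*+/+ and 11.22, 10.53, 11.61 and 10.46 in *Cd151*-/- mice. The groups overlapped widely, with a difference of −0.33 (95% confidence interval −1.12 to 0.46), and *Cd151*+/+ mouse 3 was again the highest. Without that mouse the difference was −0.04, and without *Cd151*-/- mouse 3 it was −0.55. *Serpina3c*, *Serpina3k* and *Serpina3m* were detected in no mouse. Paralogs of this cluster are close in sequence, so a probe may bind transcripts of more than 1 of them, and probe sequences were not used here.

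**Figure D3:**
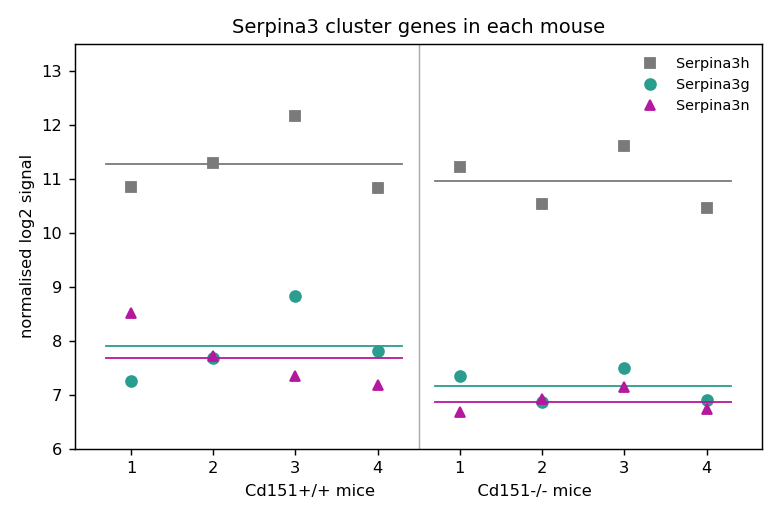
Normalised log2 signal (y axis) of *Serpina3h*, *Serpina3g* and *Serpina3n* in each mouse (x axis, mice 1 to 4 of each genotype), with a line at each group's mean of 4 mice. *Cd151*+/+ mouse 1 is highest for *Serpina3n* (8.52), while *Cd151*+/+ mouse 3 is highest for *Serpina3g* (8.84) and *Serpina3h* (12.17).

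The antitrypsin genes, whose products inhibit neutrophil elastase, were measured by more than 1 paralog. *Serpina1b* had log2 signals of 10.24, 10.71, 9.49 and 9.27 in *Cd151*+/+ and 9.34, 9.09, 9.74 and 9.63 in *Cd151*-/- mice at its brighter probe, with a difference of −0.48 (95% confidence interval −1.19 to 0.24), −0.21 without *Cd151*+/+ mouse 2 and −0.87 with array weights. Its dimmer probe gave −0.12. Within the higher background set the dimmer probe differed by 0.52 and the brighter by −0.16, and within the lower set by −0.77 and −0.79. *Serpina1d* differed by −0.14 (−0.62 to 0.34), by −0.03 without *Cd151*+/+ mouse 2 and by −0.27 without *Cd151*+/+ mouse 4, and its *Cd151*-/- mice lay within 6.61 to 6.75. *Serpina1a* was detected in 2 *Cd151*+/+ mice and no *Cd151*-/- mouse, with every signal below 6, and *Serpina1c* and *Serpina1e* were not detected. Here too probe sequences were not used, so these signals may not belong to 1 paralog each.

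Of the detected serpins of clotting and fibrinolysis, *Serpine2*, *Serpinf2* and *Serpina10* had higher means in *Cd151*-/- glomeruli and *Serpini1* a lower one, none past the test. *Serpine2*, protease nexin-1, is a cell-bound inhibitor of thrombin and urokinase. Its log2 signals were 10.50, 10.51, 10.51 and 9.80 in *Cd151*+/+ and 11.01, 11.10, 11.17 and 10.11 in *Cd151*-/- mice. In each genotype mouse 4 was the low one, and the other 3 *Cd151*-/- mice were above all *Cd151*+/+ mice. The difference was 0.52 (standard error 0.29, unadjusted p = 0.101, adjusted p = 0.918, limma), 0.76 with an unadjusted p of 0.0126 without *Cd151*-/- mouse 4, and 0.34 without *Cd151*+/+ mouse 4. Within the higher background set it was 0.90 and within the lower 0.13.

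*Serpinf2* encodes alpha-2-antiplasmin, the main plasma inhibitor of plasmin. Its brightest probe read 9.65, 10.73, 10.22 and 10.37 in *Cd151*+/+ and 10.44, 9.71, 10.72 and 12.56 in *Cd151*-/- mice. *Cd151*-/- mouse 4 stood far above the other 7 mice, which overlapped, and the other 2 *Serpinf2* probes were also highest in that mouse, at 11.32 and 11.52. The difference was 0.62 (95% confidence interval −0.51 to 1.75) with all mice, 0.05 without *Cd151*-/- mouse 4 and 1.01 without *Cd151*-/- mouse 2.

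*Serpina10*, the protein Z-dependent inhibitor of clotting factor Xa, was detected in 2 *Cd151*+/+ and 3 *Cd151*-/- mice. Its log2 signals were 5.66, 4.77, 4.59 and 6.30 in *Cd151*+/+ and 6.90, 6.58, 4.87 and 8.82 in *Cd151*-/- mice. *Cd151*-/- mouse 4 was again the highest, and the difference of 1.46 (standard error 0.69, unadjusted p = 0.0589, adjusted p = 0.918, limma) was 0.81 without it. It was 0.72 without the normexp background correction and 0.85 after cubic spline normalisation. Without *Cd151*-/- mouse 3 it was 2.15 (unadjusted p = 0.00379, limma), and without *Cd151*+/+ mouse 4 it was 1.74 (0.0390). *Serpini1*, neuroserpin, which inhibits tissue plasminogen activator, went the other way. It was detected in 4 *Cd151*+/+ and 3 *Cd151*-/- mice, with *Cd151*-/- mouse 3 at background. It read 6.53, 6.53, 7.28 and 7.17 in *Cd151*+/+ and 6.33, 6.98, 5.17 and 6.32 in *Cd151*-/- mice, with overlap between the groups and a difference of −0.67 (−1.48 to 0.13), which was −0.33 without *Cd151*-/- mouse 3 and −0.90 (unadjusted p = 0.0226, limma) without *Cd151*-/- mouse 2. *Serpina5*, the protein C inhibitor, was detected on 1 array.

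Proximal tubule markers were set beside these serpins. Of 9 such markers listed 8 were on the array and all 8 were higher in *Cd151*-/- mice, by a median of 0.66, where 2 reached an unadjusted p of 0.05, against 4.3% of all tested probes, and 0 passed adjustment. The organic anion transporter *Slc22a8*, detected in 1 *Cd151*+/+ and 4 *Cd151*-/- mice, differed by 1.45 without overlap between the groups. Most of its *Cd151*+/+ signals were at background, so 1.45 is not an exact difference in transcript. The summed normalised signal of the 8 markers was 19922, 27625, 43837 and 56730.4 in *Cd151*+/+ mice 1 to 4 and 65769.8, 41713, 40420.3 and 72318 in *Cd151*-/- mice 1 to 4, so *Cd151*-/- mouse 4 had the highest sum as well as the highest *Serpinf2* and *Serpina10*, while *Cd151*+/+ mouse 2, next highest for *Serpinf2*, had the lowest sum but one. The sodium-phosphate transporter *Slc34a1* had the brightest probe of them. *Lrp2*, which encodes megalin, was detected in 0 *Cd151*+/+ and 2 *Cd151*-/- mice, so the detection filter could set its direction. *Kap*, an androgen-regulated tubule transcript, read 10.76 in *Cd151*-/- mouse 4 and 6.70 to 8.70 in the others. The marker differences were larger within the arrays of lower background than within those of higher background. They were 0.93 against 0.03 for *Slc34a1*, 1.44 against −0.34 for *Slc5a2*, 1.81 against 0.15 for *Slc22a6* and 0.87 against 0.24 for *Aqp1*. For *Miox*, *Kap* and *Lrp2* they were 1.41 against 0.10, 1.91 against 0.85 and 0.71 against 0.11. *Slc22a8* was nearly alike, at 1.47 against 1.43. The part of tubule in the serpin differences was not tested, and in bulk RNA fewer cells of a type cannot be told apart from less RNA per cell. The 5 detected podocyte markers were all lower, with a median of −0.19 and 0 below an unadjusted p of 0.05, and of 5 detected mesangial markers 3 were lower, *Pdgfrb* with a difference of −0.74 (unadjusted p = 0.0399, limma). Endothelial markers were lower for 6 of 7 genes, with a median of −0.35 and 0 below an unadjusted p of 0.05. *Kdr*, counted as lower, was detected in 2 *Cd151*+/+ and 0 *Cd151*-/- mice, so the detection filter could set its direction. With the background set as a block *Ehd3* (difference −0.63) had an unadjusted p of 0.0305 (limma), not past adjustment. Of 3 detected erythroid markers *Alas2* (difference −2.57) and *Hba-a1* (−0.69) were lower at an unadjusted p below 0.05, neither past adjustment, while *Hbb-b1* was detected on 1 array. The part of these cell types in the serpin differences was not tested. Of 5 hepatocyte markers, *Alb1*, *Apoa1* and *Fgb* were detected in no mouse, and *Apoa2* (5.45) and *Ttr* (5.54) on 1 *Cd151*+/+ array each.

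**Figure D4:**
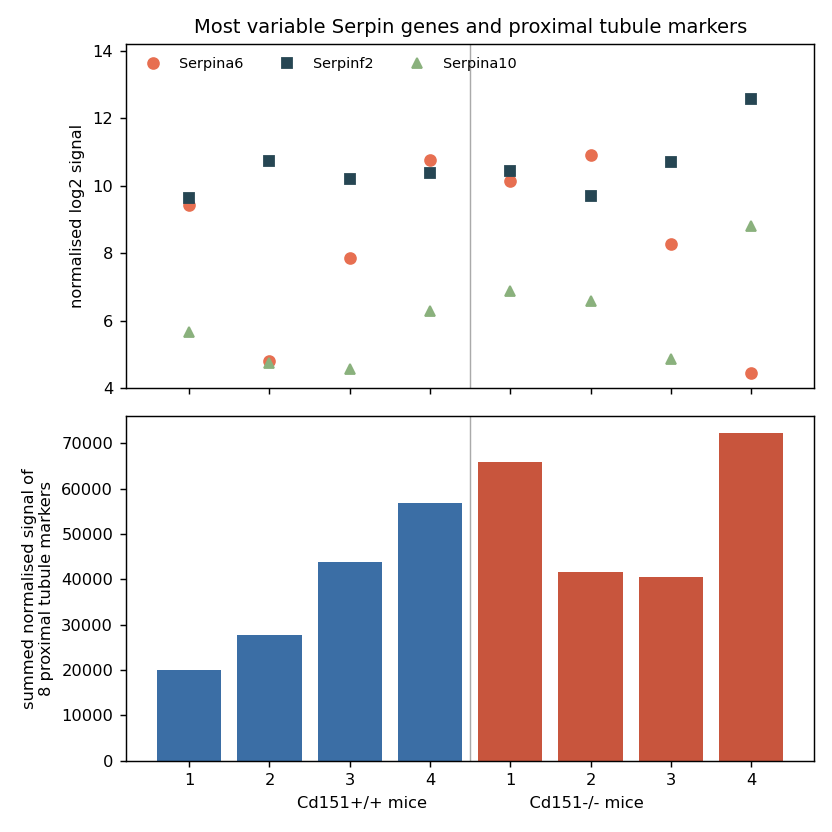
Upper panel, normalised log2 signal (y axis) of *Serpina6*, *Serpinf2* and *Serpina10* in each mouse (x axis, mice 1 to 4 of each genotype). Lower panel, summed normalised signal of the 8 proximal tubule markers in the same mice. *Cd151*-/- mouse 4 has the highest *Serpinf2* (12.56), *Serpina10* (8.82) and marker sum (72318) and the lowest *Serpina6* (4.45).

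*Serpina6* encodes corticosteroid-binding globulin, the plasma carrier of glucocorticoids and a serpin without inhibitory activity. Its log2 signals were 9.43, 4.82, 7.87 and 10.75 in *Cd151*+/+ and 10.16, 10.92, 8.27 and 4.45 in *Cd151*-/- mice. It was undetected in *Cd151*+/+ mouse 2 and *Cd151*-/- mouse 4 and clearly detected in the other 6, so that the groups had nearly the same mean and almost the same range. The difference was 0.23, with a 95% confidence interval of −2.95 to 3.40, and turned negative when *Cd151*+/+ mouse 2 was left out (−0.93), as it did for *Cd151*-/- mouse 1 (−0.33) and mouse 2 (−0.58). It rose to 1.57 without *Cd151*-/- mouse 4, 1.07 without *Cd151*+/+ mouse 4 and 2.04 with array weights. Its pooled SD within genotypes, 2.73 on the log2 scale, was exceeded by 1 of the 14967 tested probes, and the median over those probes was 0.38. *Serpina10* followed with 1.28 and *Serpinf2* with 0.92.

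*Serping1*, *Serpinb6a* and *Serpinb1a*, inhibitors of complement and leukocyte proteases, had lower means in *Cd151*-/- mice, with intervals that held 0. *Serping1* encodes C1 inhibitor, which blocks the C1r and C1s proteases of complement and plasma kallikrein. Its log2 signals were 12.86, 12.93, 12.01 and 12.55 in *Cd151*+/+ and 12.07, 12.45, 12.82 and 12.01 in *Cd151*-/- mice. The ranges were nearly the same, and the difference was −0.25 (95% confidence interval −0.86 to 0.36), and −0.44 to −0.13 when 1 mouse was left out. *Serpinb6a*, a cytosolic inhibitor of cathepsin G, read 12.67, 12.57, 12.13 and 12.17 in *Cd151*+/+ and 11.89, 12.01, 12.81 and 11.86 in *Cd151*-/- mice. It was lower in all *Cd151*-/- mice except mouse 3, the highest of the 8, and differed by −0.25 (−0.83 to 0.34), or −0.47 without that mouse. The difference was −0.15 without *Cd151*+/+ mouse 1 or *Cd151*-/- mouse 4, and −0.50 with array weights. *Serpinb1a*, an inhibitor of neutrophil elastase, differed by −0.35 (−1.15 to 0.44), by −0.07 without *Cd151*-/- mouse 4 and by −0.65 without *Cd151*-/- mouse 3.

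The non-inhibitory serpins of the matrix and vessel wall also overlapped. *Serpinh1* encodes HSP47, the collagen chaperone of the endoplasmic reticulum. Its log2 signals were 9.28, 9.55, 9.46 and 9.89 in *Cd151*+/+ and 9.68, 9.97, 9.50 and 8.62 in *Cd151*-/- mice, with *Cd151*-/- mouse 4 the lowest. The difference was −0.10 (95% confidence interval −0.75 to 0.55) and changed sign without *Cd151*+/+ mouse 4 (0.01) or *Cd151*-/- mouse 4 (0.17). *Serpinf1* encodes pigment epithelium-derived factor, a secreted inhibitor of angiogenesis. It read 8.74, 7.89, 8.03 and 7.52 in *Cd151*+/+ and 8.43, 7.96, 8.67 and 7.82 in *Cd151*-/- mice and differed by 0.18 (−0.49 to 0.84), a value of −0.00023 without *Cd151*+/+ mouse 4. The intervals of both genes leave out a change of 2-fold in either direction.

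The remaining detected members were dim. *Serpina12*, *Serpina4-ps1*, *Serpinb3b*, *Serpinb6b*, *Serpinb6c*, *Serpinb8* and *Serpinb9c* were each detected on 1 or 2 arrays, so that at least 3 mice of either genotype were at background. They count in the numbers of genes lower and higher, and their differences are mostly of signals at background.

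Proteases and partners of these serpins were read from lists of genes with that role, none of which passed adjustment for any member. Their counts of higher and lower include genes detected in 1 genotype alone, whose direction the detection filter could set. With the background set as a block *S100a10*, *F8*, *Ctsb* and *Gzmm* also fell below an unadjusted p of 0.05 (limma). In that fit 11.3% of all tested probes did, and no gene of these lists passed adjustment. Of 11 genes of plasminogen activation 8 were detected, 5 higher and 3 lower, with 0 below an unadjusted p of 0.05 and a median difference of 0.22. Of these, *Lrp1* and *Cpb2*, both higher, were detected in *Cd151*-/- mice alone, and *Vtn*, lower, in *Cd151*+/+ mice alone. Urokinase (*Plau*), a target of *Serpine2*, had log2 signals of 10.42, 10.02, 11.25 and 10.93 in *Cd151*+/+ and 11.61, 10.95, 9.86 and 10.91 in *Cd151*-/- mice and differed by 0.18 (standard error 0.38), or 0.78 with array weights, with groups that overlapped fully. Its receptor *Plaur* differed by −0.27 (standard error 0.21), or −0.15 without *Cd151*-/- mouse 4, and tissue plasminogen activator (*Plat*) and plasminogen (*Plg*) were detected in no mouse.

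Of 27 coagulation genes 16 were detected, 10 higher and 6 lower, with a median of 0.22. Of these, *F9*, higher, was detected in *Cd151*-/- mice alone, and *F5* and *Procr*, lower, in *Cd151*+/+ mice alone. An unadjusted p below 0.05 was reached by 1 gene, where 4.3% of all tested probes reached it. That gene was *Vwf*, von Willebrand factor of endothelium and platelets, detected in 2 *Cd151*+/+ and 0 *Cd151*-/- mice and so tested only through the group where it was high. *Cd151*+/+ mouse 1 read 7.15 and the other 7 mice 4.63 to 5.73, and without that mouse the unadjusted p was 0.0976 (limma). The thrombin receptor *F2r* was detected in every mouse and differed by 0.28 (standard error 0.22), whereas prothrombin (*F2*) and tissue factor (*F3*) were detected in none. Some transcripts of plasma clotting proteins were, like *Serpinf2*, highest in *Cd151*-/- mouse 4, and others were lowest there. Protein C (*Proc*) read 9.97 there and 5.86 to 7.84 in the other mice, the factor XIII B chain (*F13b*) 11.85 against 8.74 to 10.46, and the fibrinogen alpha chain (*Fga*) 8.82 against 5.49 to 7.10. Kininogen (*Kng1*) read 11.89 there against 12.04 to 13.34, and protein S (*Pros1*) 10.73 against 11.08 to 11.84. Factor VIII (*F8*), at 6.62, lay inside the range of the other mice.

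The cysteine cathepsins, targets of *Serpina3g* and of several clade B serpins, gave 8 detected genes of 10, 6 higher and 2 lower, with a median of 0.32. *Ctsz* read 7.56, 7.48, 7.48 and 7.78 in *Cd151*+/+ and 8.23, 8.68, 7.64 and 8.66 in *Cd151*-/- mice, with 1 *Cd151*-/- mouse inside the range of *Cd151*+/+ mice. It was higher by 0.73 (standard error 0.26, unadjusted p = 0.0172, adjusted p = 0.918, limma), while *Ctsl* had a difference of −0.57 (unadjusted p = 0.0438, adjusted p = 0.918). These were the genes of the list below an unadjusted p of 0.05, where 4.3% of all tested probes were. *Ctsb* differed by 0.81 (unadjusted p = 0.216, or 0.00186 with the background set as a block, limma), not past adjustment in either fit. *Ctss*, counted as higher, was detected in *Cd151*-/- mice alone. Of a list of 17 genes for leukocyte serine proteases and perforin (*Prf1*), 5 were detected, 1 higher and 4 lower (*Prf1* among the latter). The higher one, *Cma1*, was detected in *Cd151*-/- mice alone, and *Gzma*, lower, in *Cd151*+/+ mice alone. Of 7 genes of C1 and the lectin pathway 2 were detected, *C1s* (difference −0.37) and *C1qa* (−0.0025). *C1qa* was detected in 1 mouse of each genotype, so its difference is mostly of signals at background. In either list 0 genes were below an unadjusted p of 0.05 (limma). With the background set as a block *Gzmm* (difference −0.64) had an unadjusted p of 0.00843 (limma), not past adjustment. *Ctsg* and *Gzmb*, which encode targets of *Serpina3n*, were detected in no mouse. Pan-leukocyte *Ptprc* was also undetected, and 4 of 7 leukocyte markers were detected, 1 higher and 3 lower, with *Lyzs*, lysozyme, giving the brightest probe. Of these, *Ms4a1*, lower, was detected in 1 *Cd151*+/+ and 0 *Cd151*-/- mice.

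Of 25 genes of procollagen handling on the array, among them the collagen chains that HSP47 binds, 22 were detected, 7 higher and 15 lower, with a median of −0.06 and 0 below an unadjusted p of 0.05. The basement membrane chains *Col4a1* and *Col4a2* differed by 0.14 and −0.14, and *Col4a3*, a chain of the mature glomerular basement membrane, by −0.16 (standard error 0.21).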

How the data were processed

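Total glomerular RNA of each mouse was amplified, biotin-labelled and hybridised to 1 MouseRef-8 v1.1 array. The authors deposited the mean bead signal intensity of 25697 probes from GenomeStudio without background subtraction or normalisation. The deposited table also gives a detection p-value with each intensity. The members and gene lists were chosen with earlier results of these data known. In R 4.3.3, limma 3.58.1 inferred array backgrounds from the detection p-values, applied neqc (offset 16, quantile normalisation) and compared genotypes with lmFit and eBayes, without covariates. Tests covered the 14967 probes that any array detected, and p-values were adjusted over all of these. Where a gene had several probes, the brightest on average is given. Values by mouse are given for *Serpin* genes with an unadjusted p of 0.05 or lower or groups without overlap, the 5 brightest, and *Serpine2*, *Serpinh1*, *Serping1*, *Serpinf1*, *Serpina3n*, *Serpinb6a*, *Serpinb9* and *Serpini1* where detected. Some genes of the rule and lists are not reported here. *Serpina1b*, *Serpina6*, *Serpina10* and, from the lists, genes above that p other than *Plat*, *Plau* and *Plaur* were chosen after their values were seen. All 53 symbols were found in the RefSeq gene table of GRCm38.p6. No 2 arrays had identical signals. The number of arrays limits the precision. Alternatives were other settings of background, normalisation, offset and detection, blocks, array weights, an equal-variance test and leaving out each mouse. The fits were tested on simulated data.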

Additional observations from a re-analysis of the deposited data

Results flagged for a closer look

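Of 58 groups of 4 mice, 29 genes in each genotype, 3 held a mouse whose gap to its nearest neighbour was a larger share of the group's range than Dixon's 95% critical value allows. Chance gives about 1 such group in 20. *Serpinb6a* in *Cd151*-/- mouse 3 stood at 12.81, with the next mouse at 12.01. *Serpine2* was low in *Cd151*+/+ mouse 4 at 9.80 (next 10.50) and in *Cd151*-/- mouse 4 at 10.11 (next 11.01).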

How the results depend on the processing

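No setting brought a *Serpin* gene past adjustment. The number of tested probes past adjustment, 5, was 8 with the background set as a block, 3 with an equal-variance test and 4 to 6 without 1 mouse. The number of *Serpin* genes below an unadjusted p of 0.05, 2, was 5 with the set as a block, 1 with the equal-variance test (4.12% of all probes), 10 with array weights (where 32.2% of all probes passed) and 1 to 4 without 1 mouse (4 without *Cd151*-/- mouse 3, where 9.42% of all probes passed), and the number without overlap, 1, was 1 to 5 (5 without the same mouse, where 8.67% of all probes had none on the values normalised over 8 mice). Mice of the same replicate number had correlations of −0.58, −0.40, −0.53 and −0.0086 in their deviations from the genotype mean. They lay in opposite background sets, so these values cannot decide whether the replicate numbers pair the mice. With the replicate number as a block 4 probes passed adjustment and 3 *Serpin* genes the unadjusted p (2.81% of all probes), *Serpina10* being added. *Serpina3g* lost that p without normexp (0.0611, difference −0.48), with a cubic spline (0.0538, −0.53) and with array weights (0.0965, −0.50), and at a difference of −0.73 or −0.74 with 75th percentile scaling (0.0546), no detection filter (0.0528) and the equal-variance test (0.0912). The count stayed at 2, with 1 lower and 1 higher, in 4 of these settings. The higher gene was *Serpinb6b* without normexp, with a cubic spline and with no detection filter, and *Serpina10* with 75th percentile scaling. The *Serpin* median of −0.07 was −0.25 for probes detected on all 4 arrays of a genotype, −0.19 with array weights, −0.18 with 75th percentile scaling (all probes −0.07), −0.03 without normexp, −0.0078 with no detection filter and −0.17 to −0.05 without 1 mouse. Of 29 genes, 20 kept their sign in each setting that gave them a value. Without normexp *Serpini1* was −0.28, with a cubic spline −0.34 and with array weights −0.30, where *Serpinf2* was 0.24. Signs turned with 75th percentile scaling for *Serpina12* (−0.20), *Serpina4-ps1* (−0.15) and *Serpinb3b* (−0.23), with array weights for *Serpina12* (−0.32), *Serpinb3b* (−0.081) and *Serpinh1* (0.16), and for *Serpina5* without normexp (0.0018) and with a cubic spline (0.0025). Without 1 mouse the difference ran from −0.11 to 0.12 for *Serpina12*, −0.055 to 0.29 for *Serpina4-ps1*, −0.20 to 0.016 for *Serpina5*, −0.93 to 1.57 for *Serpina6*, −0.0085 to 0.27 for *Serpinb3b*, −0.43 to 0.13 for *Serpinb6c*, −0.00023 to 0.41 for *Serpinf1*, −0.28 to 0.17 for *Serpinh1* and −0.082 to 0.50 for *Plau*. The cause was not tested. Signal over background limits the dim genes, whose differences near background may understate a change.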

Other observations

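The most variable probe of all those tested was that of *Acsm3* (pooled SD within genotypes 2.83), a medium-chain acyl-CoA synthetase gene, then that of *Serpina6* (2.73), with *Inmt*, an indolethylamine methyltransferase gene, next (2.37). *Acsm3* and *Inmt* were highest in *Cd151*-/- mouse 4 (12.72 and 13.64) and next highest in *Cd151*+/+ mouse 2 (9.84 and 10.18), the 2 mice in which *Serpina6* was undetected, and lowest in *Cd151*-/- mouse 2 (4.86 and 6.12), where *Serpina6* was highest (10.92). These genes were chosen after their values were seen, and the relation was not tested.

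Of the 523 probes detected on exactly 6 arrays, 31, that of *Serpina6* included, were detected on the same 6 arrays. Its lowest detected mouse lay 3.05 on the log2 scale above its highest undetected mouse, and the next widest gap among the 31 was 0.86, at *Ddb2*. These are gaps of signal over background, which differs by probe, and are not fold changes.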
